A study of Drosophila melanogaster with 3 samples.

Results

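The 10 genes described here encode enzymes of glycolysis in Drosophila melanogaster, namely Hex-A, Pgi, Pfk, Ald1, Tpi, Gapdh1, Gapdh2, Pgk, Pglym78 and Eno, among 13945 protein-coding genes annotated on 6 chromosome arms. They are a list of names that runs along the pathway from hexokinase to enolase; no measured value enters the rule, although the list was drawn up with earlier results of these data known. Each was examined for binding of Nau, the Drosophila member of the MyoD family of basic helix-loop-helix factors, which is known for its role in embryonic muscle. Nau-bound chromatin was mapped by chromatin immunoprecipitation and sequencing (ChIP-seq) in whole embryos of both sexes, aged 4 to 24 h, from a transgenic line that stably expresses nau with a C-terminal GFP. After sonication to 200 to 800 bp, chromatin was precipitated in 3 biological replicates, with an antibody that the sample descriptions give as anti-GFP and the antibody label as nau. The age is that of the source name, as the age label holds no plausible number of hours. The replicates form a single group with no second genotype, treatment or time. The authors' lists give each enriched region a signal value and a summit, the base of highest enrichment. They comprise 30000 regions for each replicate, 30000 for the pooled replicates, and 3767 that passed a threshold on the irreproducible discovery rate (IDR), which are the strongest 3767 of the pooled list. An immunoprecipitation from embryos without the tag was not analysed here.

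Glycolysis splits glucose into pyruvate. In its first, energy-consuming phase hexokinase, phosphoglucose isomerase, phosphofructokinase, aldolase and triose phosphate isomerase turn the sugar into triose phosphates, and in its second, energy-yielding phase glyceraldehyde 3-phosphate dehydrogenase (GAPDH), phosphoglycerate kinase, phosphoglycerate mutase and enolase carry these towards pyruvate. In Drosophila embryos the genes of the pathway are known to be induced together by the nuclear receptor ERR as larval growth approaches, and muscle is a tissue with a high glycolytic capacity.

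A gene was taken to have a summit when one lay in its body or within 2 kb upstream. By this rule 5 of the 10 genes (50%) had a summit of the thresholded list, compared with 17.9% of all protein-coding genes. The 5 were Hex-A and Ald1 of the first phase and Gapdh2, Pgk and Eno of the second. In whole embryos, binding in few cells and weaker binding in many cells cannot be told apart. Each replicate's own list was also cut to its strongest 3767 regions, the size of the thresholded list. There 4, 5 and 4 of the 10 genes had a summit in replicates 1, 2 and 3 (4.33 ± 0.577, SD, n = 3), where 19.2%, 18.6% and 19.0% of all genes did. In the full lists of 30000 regions, 6 of the 10 had one in every replicate, where the shares of all genes were 46.0%, 45.3% and 45.4%, with 37.2% called in all 3, and the pooled list also held 6 against 40.7% of all genes. The sixth gene was Pfk. The remaining Pgi, Tpi, Gapdh1 and Pglym78 had no region in any replicate or in the pooled list, as did 45.8% of all genes. The genes thus fell in 3 sets, with 4 at rank 404 or better in every replicate, Ald1 and Pfk at ranks from 1869 to 14653, and 4 with nothing listed. These ranks are of the strongest region in the window, which at Pgk, Ald1 and Pfk was not the same site in every replicate.

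**Figure D1:**
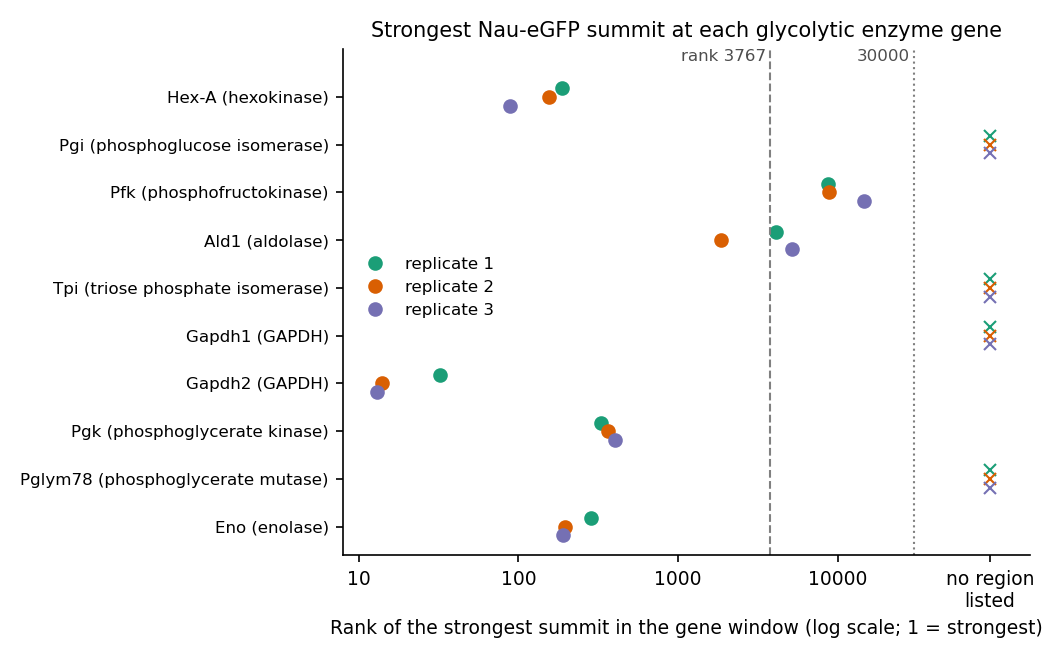
Rank of the strongest summit in the body or 2 kb upstream of each gene (log axis, 1 = strongest), in pathway order, with 1 point per replicate, a dashed line at rank 3767, a dotted line at 30000 and a cross where no region was listed. Gapdh2, Hex-A, Eno and Pgk lie at ranks 13 to 404 in all 3 replicates, Ald1 and Pfk between 1869 and 14653, and the other 4 genes have crosses only.

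The order of the 6 genes by their strongest summit was the same in every replicate, with Gapdh2 first, then Hex-A, Eno, Pgk, Ald1 and Pfk. The ranges of neighbours in this order did not overlap, although that of Hex-A ended at rank 187 where that of Eno began at 189. Ranks were compared because the signal value is on a scale that the sources do not name. The value of the last of the strongest 3767 regions was 57.9, 59.2 and 67.5 in replicates 1, 2 and 3, and the highest of any region was 929.3, 849.1 and 1097. No test was made, since the series has a single group and the genes are not replicates of each other.

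Gene length differed among the 10. Of the 4 genes with a body of 1000 to 2000 bp, only Gapdh2 had a thresholded summit, beside 399 of 3845 genes of that length (10.4%). Of the 6 with a body of 3000 to 8000 bp, 4 had one, beside 562 of 2997 (18.8%).

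At the entry to the pathway, Hex-A, a hexokinase that phosphorylates glucose (X:9585675-9589813, plus strand), had 3 thresholded summits, all upstream of its start. At least 3 summits were found at 407 genes (2.92%). The strongest lay 217 bp upstream of the start in the region X:9585237-9585680, with rank 129 in the pooled list and a signal value of 878.6. Its ranks were 187, 155 and 89 in the 3 replicates (143.7 ± 49.97, SD, n = 3), with signal values of 254.6, 252.7 and 381.9, and the 3 replicate summits fell within 84 bp of each other. All 3 replicates thus had it at rank 187 or better, and no other gene's window held it. Another summit lay 1773 bp upstream in X:9583736-9584108, ranked 298 in the pooled list and 316, 398 and 282 in the replicates (332 ± 59.6, SD, n = 3). The third, 16 bp upstream of the start, ranked 2173 and shared the interval of the first. It had a counterpart within 100 bp in replicate 3 only, at rank 6013.

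The 201 bases around the strongest Hex-A summit are printed as the RefSeq Release 6 (dm6) genome gives them, because this was the second strongest site among the 10 genes. The window around the pooled summit held no E-box, the 6-letter word CANNTG that factors of the Nau class bind. An E-box at X:9585555-9585560 crosses the end of this window, and it lay 5 bp from the summits of replicates 1 and 2, which were both 92 bp downstream of the pooled one. Its GC content of 23.4% was the lowest of any summit at these genes.
Hex-A, rank 129, X:9585358-9585558, plus strand: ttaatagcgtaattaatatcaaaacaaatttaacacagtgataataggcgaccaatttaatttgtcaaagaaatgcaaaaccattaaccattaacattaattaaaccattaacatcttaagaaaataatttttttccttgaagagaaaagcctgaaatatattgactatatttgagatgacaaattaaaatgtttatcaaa

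Pgi, phosphoglucose isomerase, which interconverts glucose and fructose phosphates (2R:8910900-8914069, minus strand), lay farthest from any listed summit. The nearest one to its start was 33979, 34083 and 34065 bp away in the full lists of replicates 1, 2 and 3. For all genes the median distance was 2733, 2829 and 2791 bp, and 1.33% of genes had a start at least as far from every replicate summit as Pgi. Pfk, phosphofructokinase, the committed and regulated step of the pathway (2R:10109740-10117457, plus strand), had weak regions only. Its strongest had ranks of 8664, 8802 and 14653 (10710 ± 3419, SD, n = 3) with signal values of 36.3, 36.1 and 29.4, and the pooled one, 1020 bp upstream, ranked 9624. In replicates 1 and 2 the strongest lay 1005 and 985 bp upstream, near the pooled summit, but in replicate 3 it lay 1725 bp upstream, while a weaker one 851 bp upstream ranked 18702. All Pfk ranks were behind 3767 in each list.

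Ald1, the aldolase that cleaves fructose bisphosphate (3R:26254069-26261591, minus strand, 5 annotated starts), was the weakest of the called genes. Its single thresholded summit, in 3R:26261103-26261562, ranked 3535 of 3767, 232 places inside the threshold, with a signal value of 172.6 where the last region had 166.3. It lay in the 5′ UTR, 79 bp downstream of the nearest of the 5 starts, and also within 2 kb upstream of the neighbouring gene CG6154. The regions matching this summit ranked 8542, 1869 and 5169 in the 3 replicates (5193 ± 3337, SD, n = 3), so only replicate 2 had it among its strongest 3767. In replicate 1 the strongest Ald1 region was a different one, 3110 bp into the gene, at rank 4125. The spread between replicates therefore crossed the threshold at Ald1, and at no other called gene of the 10 did the strongest summit do so.

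Tpi, triose phosphate isomerase, which interconverts the triose phosphates (3R:30132981-30134599, minus strand), had its nearest summits 19401, 19935 and 20394 bp from the start in the 3 replicates. A start at least as far from every replicate summit was found at 5.08% of genes. The 200 bases upstream of its start are printed for contrast with the summit sequences, since they hold 3 E-boxes (capitals) and yet no region was listed there.
Tpi, upstream of the start, 3R:30134600-30134799, minus strand: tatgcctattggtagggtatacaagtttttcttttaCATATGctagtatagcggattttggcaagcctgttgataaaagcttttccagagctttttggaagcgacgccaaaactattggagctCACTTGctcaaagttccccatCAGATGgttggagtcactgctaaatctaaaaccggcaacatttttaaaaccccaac

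The GAPDH step opens the energy-yielding phase and is encoded by both Gapdh1 and Gapdh2. Gapdh2 (X:15868145-15869661, plus strand) had the strongest summit of the 10 genes, ranked 16 of 3767 with a signal value of 1576, which placed it 20th among the 2497 genes with a thresholded summit. Replicate ranks were 32, 14 and 13 (19.7 ± 10.7, SD, n = 3), with signal values of 432.8, 499.2 and 651.1. The summit lay 166 bp upstream of the start in X:15867745-15868215, in no other gene's window, and the replicate summits fell within 51 bp of each other. Gapdh1 (2R:7791901-7793380, minus strand) had no region in any list, and its nearest replicate summits were 6739, 6819 and 6917 bp from the start. The genes are of like size, with bodies of 1517 bp for Gapdh2 and 1480 bp for Gapdh1.

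Every 31-base word in the 500 bp upstream of Gapdh1 and of Gapdh2 occurs once in the genome, so reads of that length from there have a single place. The same held in the 500 bp upstream of the other 8 genes and in all 13 summit windows. In the body of Gapdh1, 10 of 1450 such words (0.69%) also occur in the body of Gapdh2. Outside the pathway, the genes with replicate ranks most like those of Gapdh2, by distance between log10 ranks over 3 replicates, were CG18549 (ranks 24, 16 and 21, distance 0.25), CG32772 (20, 17 and 18, distance 0.262) and cno (38, 23 and 20, distance 0.295).

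The Gapdh2 summit window, also from the dm6 genome, is the strongest sequence of the set and held 2 E-boxes, CAGGTG from base 7 and CATTTG from base 40 (capitals, counted from 1 at the 5′ end), with the summit at base 101. Its GC content was 29.4%.
Gapdh2, rank 16, X:15867879-15868079, plus strand: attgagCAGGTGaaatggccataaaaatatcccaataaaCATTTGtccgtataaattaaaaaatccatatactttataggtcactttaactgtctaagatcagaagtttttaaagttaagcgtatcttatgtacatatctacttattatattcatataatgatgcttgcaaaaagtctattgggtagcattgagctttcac

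**Figure D2:**
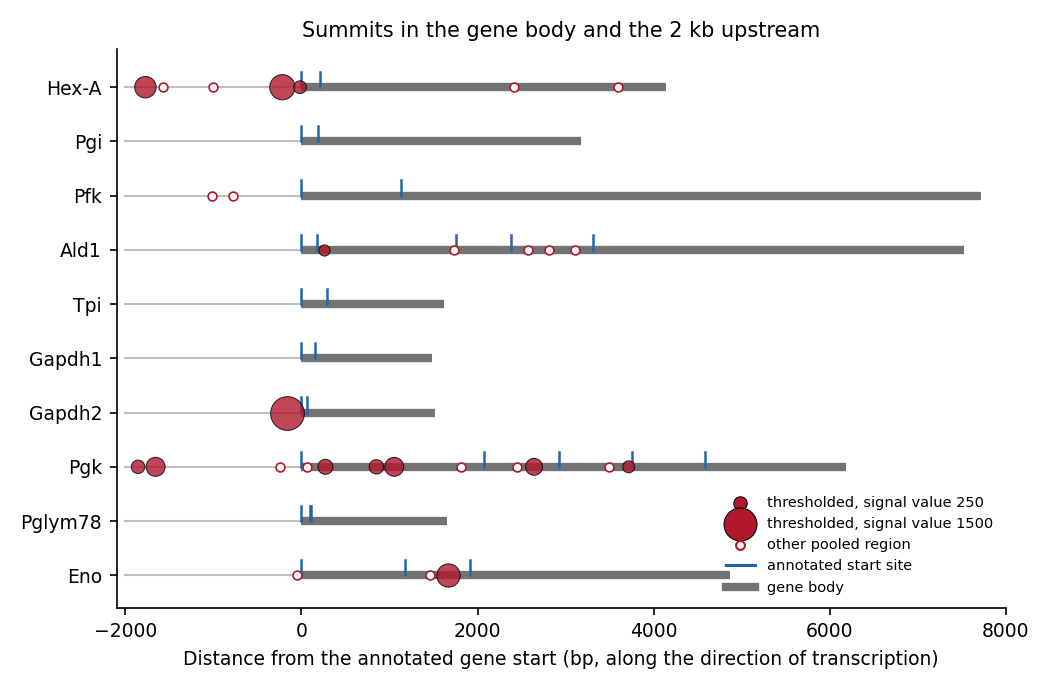
Position of summits along each gene in bp from the annotated start, in the direction of transcription. Filled circles are thresholded summits with area proportional to the pooled signal value, open circles are other regions of the pooled list, and blue ticks are annotated starts. The summits of Gapdh2 and the strongest of Hex-A lie just upstream of the start, that of Eno lies inside the gene beside an internal start, and those of Pgk are spread over the gene and its upstream side.

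Pgk, phosphoglycerate kinase, which makes the first ATP gained in the pathway (2L:2746880-2753068, minus strand, 5 annotated starts), had 7 thresholded summits, a number reached by 50 genes (0.359%). The intervals of those ranked 493 and 1377 overlapped, as did the intervals of those ranked 479 and 1779, so not all were separate regions. The 7 summits ranked 479, 493, 765, 1219, 1377, 1779 and 2779. Of these, 5 also lay in the body or upstream window of Bacc (2L:2752445-2757975, plus strand), which overlaps the start of Pgk on the other strand, so these summits cannot be given to a single gene. The other 2, ranked 765 and 2779, lay in introns 279 and 38 bp upstream of internal Pgk starts, the first of them only 19 bp outside the window of Bacc.

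The strongest summit in the Pgk window differed in place between replicates, while its rank was steady at 330, 363 and 404 (366 ± 37.1, SD, n = 3). Signal values were 200.8, 184.5 and 212.9. In replicate 1 it was the counterpart of the summit ranked 493, in an intron of Pgk, in replicate 2 that of the summit ranked 1219, in the pooled list 4 bp from an internal start of Bacc, and in replicate 3 that of the summit ranked 479, in an intron of Bacc 1657 bp upstream of Pgk. Matched by position within 100 bp, the summit ranked 479 had ranks of 388, 1166 and 404 (653 ± 445, SD, n = 3), a mean behind that by gene window. The summit ranked 765 had ranks of 1080, 582 and 984 (882 ± 264, SD, n = 3), but its counterparts in replicates 2 and 3 lay 9 and 15 bp inside the window of Bacc. The summit ranked 2779, the only one outside that window in every list, had ranks of 5140, 3108 and 2098 and was below the strongest 3767 in replicate 1. Replicate 1 also listed a region 4378 bp into Pgk, outside the window of Bacc, at rank 705. That region had no counterpart within 100 bp in the other replicates or the pooled list.

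**Figure D3:**
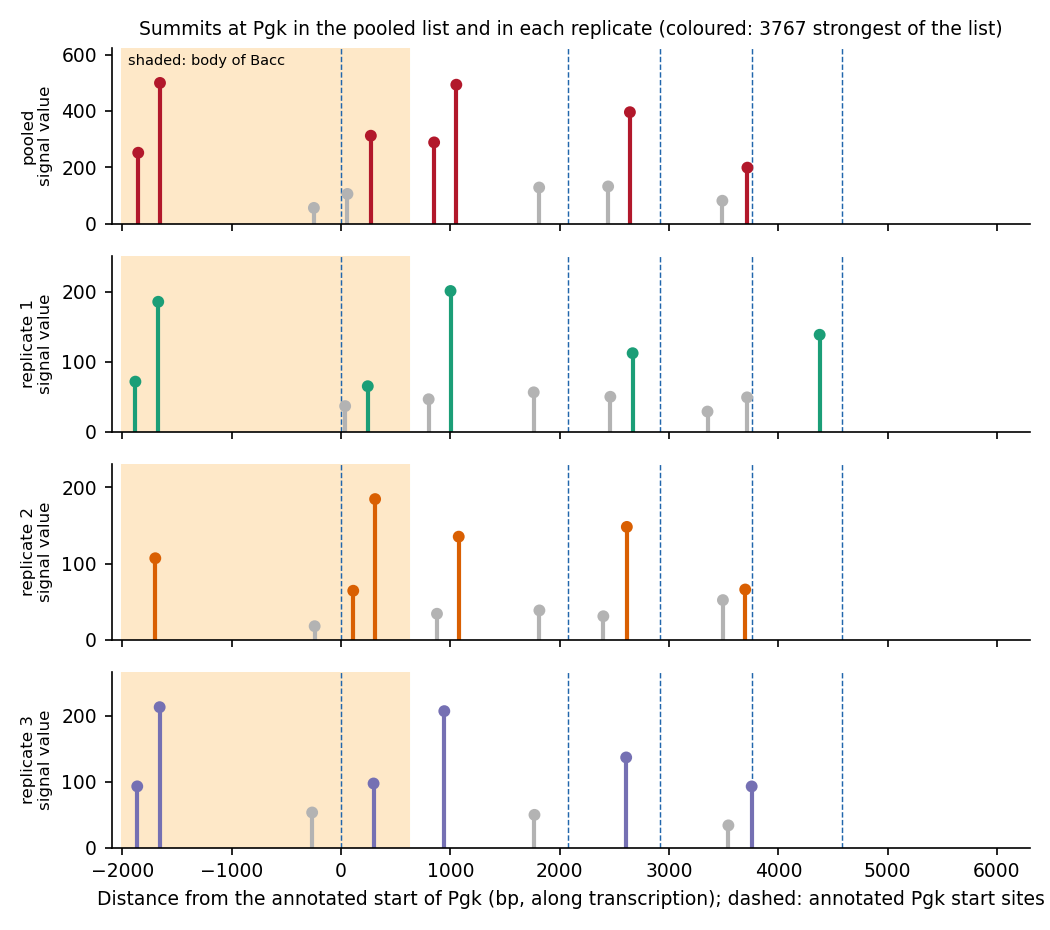
Signal value of every listed summit at Pgk against distance from its start in bp, for the pooled list and each replicate, with the body of Bacc shaded, annotated Pgk starts dashed and summits outside the strongest 3767 of a list in grey. Clusters near 1657 bp upstream and 272, 1054 and 2642 bp downstream recur in the 3 replicates, and the tallest one changes from replicate to replicate.

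Printed from dm6, the windows of 2 Pgk summits show the range at this gene. The one ranked 765, inside the gene at the edge of the window of Bacc, holds the E-box CAATTG from base 133, whereas the one ranked 1377, which lies well within the window of Bacc, holds the most E-boxes of the 13 windows, 4 in all (capitals), of which CAGATG occurs next to itself at the 5′ end.
Pgk, rank 765, 2L:2750326-2750526, minus strand: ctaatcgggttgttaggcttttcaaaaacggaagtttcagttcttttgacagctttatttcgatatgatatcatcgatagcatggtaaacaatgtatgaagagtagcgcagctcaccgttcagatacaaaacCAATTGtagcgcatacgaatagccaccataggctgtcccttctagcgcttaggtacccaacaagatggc
Pgk, rank 1377, 2L:2752117-2752317, minus strand: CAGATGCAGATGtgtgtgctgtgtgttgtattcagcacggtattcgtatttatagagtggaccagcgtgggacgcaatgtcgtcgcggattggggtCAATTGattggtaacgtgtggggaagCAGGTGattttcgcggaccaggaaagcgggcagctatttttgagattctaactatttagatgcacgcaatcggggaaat

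Pglym78, phosphoglycerate mutase, which moves the phosphate of phosphoglycerate (3R:29148248-29149901, plus strand), had its nearest replicate summits 9628, 5122 and 5209 bp from the start. Starts at least as far from every replicate summit were found at 30.7% of genes, and the value for Gapdh1 was 24.9%. The 2 genes were thus nearer to listed regions than Pgi and Tpi, although none fell in their windows.

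Eno, enolase, which forms phosphoenolpyruvate (2L:1724768-1729636, minus strand, 3 annotated starts), had 1 thresholded summit, ranked 198 with a signal value of 750.8. It lay in an intron of Eno in 2L:1727697-1728109, 1661 bp into the gene and 258 bp upstream of an internal start. Replicate ranks were 284, 195 and 189 (223 ± 53.2, SD, n = 3), with signal values of 214.2, 233.2 and 294.2, and the replicate summits fell within 44 bp of each other. Although the summit also lay within 2 kb upstream of Rrp40, which encodes an exosome subunit, and of CG31937, its nearest start was that of Eno. At the outermost start of Eno the pooled list held only a weak region, 45 bp upstream, at rank 7047. The strong site was therefore at the internal start, and the window around it, from dm6, is printed for comparison with those of Hex-A and Gapdh2. It held no E-box and had a GC content of 27.9%.
Eno, rank 198, 2L:1727875-1728075, minus strand: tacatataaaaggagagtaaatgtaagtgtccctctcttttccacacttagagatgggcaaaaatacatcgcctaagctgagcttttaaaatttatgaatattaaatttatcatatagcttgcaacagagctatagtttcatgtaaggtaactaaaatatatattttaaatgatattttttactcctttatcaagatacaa

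Placed together, the 5 genes had 13 thresholded summits. Of these, 10 lay within 500 bp of an annotated start of some gene, as did 1435 of the 3767 summits of the whole list (38.09%), and 8 lay within 500 bp of a start of the glycolytic gene itself. The 13 were taken from gene bodies and 2 kb upstream, which favours places near starts, and among the 3290 thresholded summits in such a window of any gene the share was 43.6%. None fell in a coding exon, 6 fell in an intron of the gene and 10 lay upstream of the nearest start of that gene. A counterpart within 100 bp was listed in all 3 replicates for 10 of the 13, and 7 of these were among the strongest 3767 in every replicate. The shares of all 3767 summits for exons, introns, upstream position and counterparts are not given here. These counts therefore cannot be compared with the whole list. When a summit had to recur among the strongest of only the 2 other replicates, leaving each out in turn, 8 of the 13 stayed. Of all 3767 summits, 2287, 2363 and 2232 stayed without replicates 1, 2 and 3, a like share. Of the 8 member summits, 5 or 6 were within 500 bp of a start, and Ald1 was the gene lost each time.

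Words were counted on both strands within 100 bp of each of the 13 summits, beside all 3767 thresholded summits and 6950 flanking windows. The E-box CANNTG was present at 6 of 13 pooled summits, compared with 66.0% of all summits and 65.5% of flanks. The count depends on where the summit is set, since at the strongest Hex-A site each of the 3 replicate summits had an E-box within 100 bp and the pooled summit had none. CAGCTG, the E-box for which factors of the MyoD family are best known, was at none of the 13, compared with 15.1% of all summits and 8.60% of flanks. Another E-box, CACGTG, was also at none, and was at 2.57% of all summits. GAGAG, the core of sites for the GAGA factor, was at 4 of 13 (28.0% of all summits), and TATAAA was at 4 of 13 (29.4%). The 13 windows had a median GC content of 37.8%, as did all 3767, but the strongest window at each of Gapdh2, Hex-A and Eno had 23.4% to 29.4%. These values were below the 35.3% median of the strongest 376 summits, as was the 33.3% of the Hex-A summit ranked 298.

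The promoters of the 10 genes, taken from 250 bases before to 50 after the start, were searched for words of factors known to act on glycolytic genes. AAGGTCA, a word bound by ERR, was found at Pglym78 alone (2.11% of all promoters). ACGTG, the core of sites for hypoxia-inducible factor, which also lies within CACGTG, was found at Gapdh2 alone (23.2%). An E-box CANNTG was found in 8 of 10 (77.2% of all promoters), 4 with and 4 without a thresholded summit at the gene, and CAGCTG in those of Pgk, Pglym78 and Eno (17.7%). GAGAG was found in 4 promoters (29.7% of all), those of Hex-A, Gapdh2, Pgk and Eno. The windows of the strongest pooled summits of Hex-A, Gapdh2 and Pgk held no GAGAG, while that of Eno held 2. This too depends on where the summit is set. At the Hex-A site the windows of replicates 1 and 2 held 2 each and that of replicate 3 none. At the Gapdh2 site the window of replicate 1 held 1 and those of replicates 2 and 3 none. The strongest summits of Pgk and Eno lay 1657 and 1661 bp from the start on which the promoter was placed. TATAAA was found in 4 (45.8% of all), of which only Gapdh2 had a summit. A word is a match of letters and no evidence of a bound site.

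Around the 10 genes, 71 further genes of carbohydrate metabolism were counted in 6 lists, of which 25 (35.2%) had a thresholded summit, and 29, 28 and 29 had one among the strongest 3767 of the replicates (28.7 ± 0.577, SD, n = 3). Among 16 isozymes and neighbouring genes of glycolysis and fermentation 2 did (12.5%). They were Ldh, lactate dehydrogenase, which regenerates NAD+ (rank 245, signal value 689.5, 165 bp upstream of its start, replicate ranks 287, 277 and 227), and fbp, the phosphatase that reverses the Pfk step (rank 1835). When a summit had to recur in the 2 other replicates, 2, 2 and 1 genes of this list were left without replicates 1, 2 and 3. By this stricter rule 12.8%, 13.2% and 12.7% of all genes were called. PyK, pyruvate kinase, which follows enolase, had none, with replicate ranks of 19317, 5670 and 5943. The isozymes Hex-C, Hex-t1, Hex-t2 and Pglym87 had no region in any replicate, and Ald2 had a region in replicate 1 only, at rank 24185. Among these isozymes and Hex-A, Ald1 and Pglym78, only Hex-A and Ald1 had a region in every replicate. Pglym78 and Pglym87 had none in any.

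In the lists farther from glycolysis, 4 of 10 genes of glycogen and trehalose had a summit, the strongest at Glyp, glycogen phosphorylase (rank 95, 212 bp upstream of its start), followed by Treh, trehalase (285), UGP (2061) and Glut1, a glucose transporter (2267). The start nearest to the Treh summit was that of CG10527, and the start nearest to the UGP summit was that of Pdxk. The pentose phosphate pathway had 1 of 7, CG8036, a transketolase (rank 79, 249 bp upstream). Of the 10 genes of glycerol phosphate, gluconeogenesis and pyruvate entry 6 did, led by PCB, pyruvate carboxylase (803), Gpdh1 (1207), Mpc1 (1290) and Pdk (1450). Without replicates 1, 2 and 3 in turn, 3, 3 and 4 of them were left, beside 12.7% to 13.2% of all genes. The Mpc1 summit lay 2 bp from a start of CG42613. The citric acid cycle had 5 of 18 (27.8%), led by Idh3g (242), kdn, citrate synthase (810), Ogdh (2376) and ScsbetaA (2556). In the replicates' own strongest regions this list had 7, 9 and 8 genes. Of the thresholded calls, 4, 3 and 4 were left without replicates 1, 2 and 3. Among 10 regulators 7 had a summit, led by cbt (3), sima, the hypoxia-inducible factor (347), Pdp1 (382) and bigmax (1439), while Mondo and crc were counted by a shared summit. ERR, named above as an inducer of the pathway, had none, with replicate ranks of 21576, 5779 and 12959. Nor did sug, with ranks of 10125, 8264 and 5166, and tgo had no region in any replicate. Of the genes in these 6 lists, only cbt had a summit ranked ahead of that of Gapdh2. The lists differed in gene length, and a longer body gives a larger window. The median body ran from 1705 bp for the pentose phosphate pathway to 7370 bp for the regulators, with 3654 bp for the 10 glycolytic genes. The shares were not adjusted for length, and whether the lists differ at equal length was not tested.

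**Figure D4:**
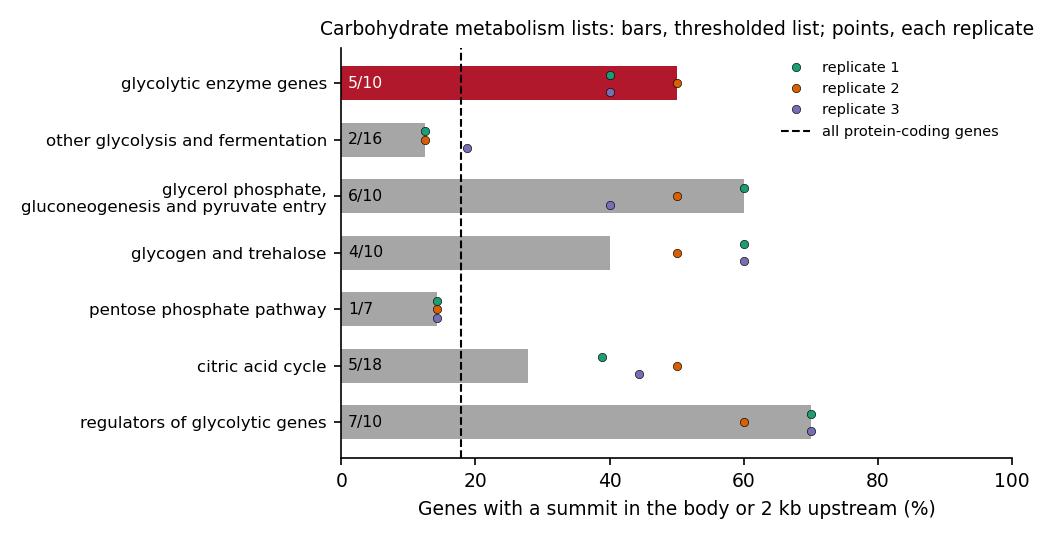
Share of genes in each list with a summit in the body or 2 kb upstream (%). Bars and fractions are for the thresholded list, points are the 3 replicates' own strongest 3767 regions, and the dashed line is the 17.9% of all protein-coding genes. The bar of the 10 glycolytic enzyme genes reaches 50%, between those of the other lists, which run from 12.5% to 70%. Shares are not adjusted for gene length, which differs between the lists.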

How the data were processed

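Regions were mapped on dm6 in 3 replicates of nau-eGFP embryos. Per the deposited read-me files, the authors made the lists of each build with a control alignment; for the aligner, peak caller, IDR threshold and read depth, nothing is stated in the sources used here. Signal values are the authors' own measure of enrichment, deposited on an unnamed scale, and served to rank regions within a list; the summit offset was taken as the authors deposited it. Lists of a fixed 30000 regions carry no information on depth, so the precision of a rank is given by the spread between replicates (SD, n = 3).

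The annotation was Ensembl release 115 (BDGP6.54), with 13945 protein-coding genes and 1-based coordinates. Gene windows comprised the body and the 2 kb before the start. Sequences came from the RefSeq Release 6 genome. Flanking windows lay 1000 bp to either side of a summit with no thresholded summit within 300 bp. The older dm3 lists were not used, since an annotation of that build was not used here. No comparison between conditions was possible and no p-value was computed.

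The genes and the lists around them were chosen with earlier results of these data known. All 10 genes were named, with up to 4 called genes of each other list by signal value, genes sharing a summit, and the 3 genes most like Gapdh2. Some list genes without a thresholded summit were named too. Of the 71 list names, 67 matched by name, 3 by synonym and 1 by an older name. The assignment of summits and the word search were tested on simulated data. Alternatives covered the gene window, the stronger part of the lists, matching of summits, distances and leaving out each replicate. Computation used Python 3.11.15 with numpy 2.4.6, pandas 2.3.3 and matplotlib 3.10.9.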

Additional observations from a re-analysis of the deposited data

How the results depend on the processing

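Counting summits in the gene body alone left 3 of the 10 genes (Ald1, Pgk and Eno), since the summits of Hex-A and Gapdh2 are upstream, and 15 of the 71 other carbohydrate genes, where 10.1% of all genes were called. The strongest 1883 thresholded regions left 4 of the 10 and 16 of the 71, with 11.2% of all genes. With 1 kb or 5 kb upstream, 1 kb around any start, or the nearest start, the same 5 genes were called, with 13.0% to 23.4% of all genes. Without each replicate in turn 4 genes were left, the same each time, with 12.7% to 13.2% of all genes, and the lost gene was Ald1. Summits within 500 bp of a start then numbered 5 to 6, because fewer summits were kept. Within 250 bp, CAGCTG was at 1 of 13 summits, in wider windows. The shares of all summits and flanks given above are for 100 bp, so this count cannot be set against them. The mean rank of Pgk was 366 by gene window and 653 by matching the pooled summit. Of the 16 other genes of glycolysis and fermentation, 2 were called by the main rule, 0 by gene body alone and 5 with 5 kb upstream. The shares of all genes for the last 2 settings were 10.1% and 23.4%. No paired analysis was possible because the series has a single group. The signal values carry no counts, so what read depth limits is unknown.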
